A study of Mus musculus with 6 samples.

Results

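The genes described here are the mouse axoneme genes named Cfap, Dnah, Drc, Rsph or Tekt followed by a digit in the platform annotation, measured in testis and ovary at 3 ages. The rule used the symbol alone, from probe sets with 1 gene symbol, and 48 of the 18193 genes on the arrays met it. It was set with earlier results of these data known. The gonads came from C57BL/6 mice, an inbred laboratory strain with no allele or treatment named in the labels. The groups were adult testis and adult ovary at 10 weeks after birth, neonatal testis and neonatal ovary on postnatal day 1, and fetal testis and fetal ovary at 15.5 days postcoitum, each with 1 Affymetrix array. The sources used here do not say how many animals gave RNA to an array. With 1 array per group no difference has a replicate check, no p-value was computed, and a gene counted as different when the larger signal was 4 times the smaller or more.

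The axoneme is the microtubule core of motile cilia and of the sperm tail, a ring of doublet tubules around a central pair. Dynein arms, whose motors are the Dnah heavy chains, bridge neighbouring doublets and make them slide. Radial spokes (Rsph proteins) carry signals from the central pair to the arms, the nexin-dynein regulatory complex (Drc proteins) links doublets and limits sliding, and tektins (Tekt proteins) are filaments inside the doublet wall. The Cfap proteins, cilia and flagella associated proteins, are named for where they were found and include parts of all these structures. In the gonad, spermatids build a flagellum, while motile cilia are known from the epithelium of the oviduct and of the ducts attached to ovary and testis. Whole-gonad RNA was measured, so fewer cells of a type and less RNA per cell cannot be told apart.

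RFX factors are transcription factors of ciliary genes that bind a DNA element called the X-box, and CREM drives spermatid genes through the cAMP response element. Promoter windows of 250 bases before to 50 bases after the start of transcription, from RefSeq on GRCm38.p6, were matched by symbol for 40 of the 48 genes, in 46 windows. The X-box consensus, in which its 2 arms may lie up to 3 bases apart, was found in 5 of the 46 windows (10.9%), in Tekt2, Cfap298, Cfap45 and Cfap20dc, against 1.53% of all 32851 windows. The letters GTTGCC, an arm of that element, were in 11 of 46 windows (23.9%) against 12.5% of all. TGACGT, the core of the cAMP response element, was in 3 of 46 windows (6.52%) against 7.51%. The forkhead letters TGTTTAC were in 4 of 46 (8.70%) against 3.65%. Both strands were searched, GTTGCC can lie inside an X-box match, and overlapping windows of the same gene (Tekt2, Rsph14) were counted separately. A match is a description of letters, not a bound site. The windows of axoneme genes also held more CpG dinucleotides, a median of 12 against 7 over all windows, at a median GC content of 55.0% against 52.7%. The 4 genes with the X-box consensus are printed here, with Tekt1, which has GTTGCC and TGACGT without an X-box match, and with Rsph3a, the gene that stood apart in neonatal ovary and has none of the searched letters. Capitals mark every match to a searched motif, and each window is written 5′ to 3′ on the gene's strand.
Tekt2, chr4:126325639-126325938, minus strand: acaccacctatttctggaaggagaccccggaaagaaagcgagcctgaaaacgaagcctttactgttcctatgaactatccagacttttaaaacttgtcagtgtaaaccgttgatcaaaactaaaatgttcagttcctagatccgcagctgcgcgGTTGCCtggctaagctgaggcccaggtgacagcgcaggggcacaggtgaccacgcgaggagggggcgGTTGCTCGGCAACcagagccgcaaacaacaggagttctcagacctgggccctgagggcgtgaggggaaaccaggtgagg
Cfap298, chr16:90934800-90935099, minus strand: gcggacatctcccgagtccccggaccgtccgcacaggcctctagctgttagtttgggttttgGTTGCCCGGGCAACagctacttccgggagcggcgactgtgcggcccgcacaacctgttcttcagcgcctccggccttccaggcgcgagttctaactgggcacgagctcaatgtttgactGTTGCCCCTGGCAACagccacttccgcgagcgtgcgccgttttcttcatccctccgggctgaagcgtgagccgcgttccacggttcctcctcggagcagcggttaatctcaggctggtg
Cfap45, chr1:172520880-172521179, plus strand: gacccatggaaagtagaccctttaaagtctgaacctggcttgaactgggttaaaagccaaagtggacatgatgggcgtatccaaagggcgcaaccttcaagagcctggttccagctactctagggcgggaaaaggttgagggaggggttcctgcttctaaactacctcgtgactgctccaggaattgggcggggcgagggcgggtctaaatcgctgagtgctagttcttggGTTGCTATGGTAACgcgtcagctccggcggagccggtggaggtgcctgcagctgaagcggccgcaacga
Cfap20dc, chr14:8666241-8666540, minus strand: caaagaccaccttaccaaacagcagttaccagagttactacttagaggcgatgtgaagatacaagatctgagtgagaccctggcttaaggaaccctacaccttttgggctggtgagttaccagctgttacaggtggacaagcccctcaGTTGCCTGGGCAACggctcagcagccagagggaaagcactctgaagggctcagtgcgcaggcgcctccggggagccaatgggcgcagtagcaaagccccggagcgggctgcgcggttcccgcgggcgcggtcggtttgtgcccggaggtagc
Tekt1, chr11:72361833-72362132, minus strand: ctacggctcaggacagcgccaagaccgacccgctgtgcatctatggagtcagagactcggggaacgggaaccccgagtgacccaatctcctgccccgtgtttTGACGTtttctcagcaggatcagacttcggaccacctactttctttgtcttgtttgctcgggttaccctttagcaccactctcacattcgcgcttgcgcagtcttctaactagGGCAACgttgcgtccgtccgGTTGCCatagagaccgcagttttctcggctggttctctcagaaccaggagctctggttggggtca
Rsph3a, chr17:7945364-7945663, plus strand: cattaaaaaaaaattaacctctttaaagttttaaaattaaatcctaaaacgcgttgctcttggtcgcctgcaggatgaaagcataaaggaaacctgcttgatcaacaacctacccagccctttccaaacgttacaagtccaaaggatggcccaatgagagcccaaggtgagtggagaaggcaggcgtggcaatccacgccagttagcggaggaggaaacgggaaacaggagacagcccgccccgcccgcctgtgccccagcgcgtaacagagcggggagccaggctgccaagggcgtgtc
Cfap20dc carries the consensus but did not differ by 4-fold in any comparison, and its testis signals were 167 (fetal), 141 (neonatal) and 129 (adult).

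Signals below are intensities after each array was scaled to a common 2% trimmed mean, and values under a floor of 75.3, the median of all scaled signals, were raised to it. Where 1 array of a pair is at the floor the ratio is a minimum and is given as at least N-fold. Genes at the floor have no order. Between 65.4% and 69.6% of all genes lay above the floor on an array. The ratio of 3' to 5' signal of Gapdh, a measure of RNA integrity, reached 2.36 in adult testis and 3.12 in neonatal ovary, and 1.32 to 1.45 for the 4 remaining samples, while that of Actb was lowest in adult testis (1.81) and lay between 2.91 and 3.78 on the others. The part of RNA integrity in the results was not tested. The 20 spermatid genes listed for comparison, such as Prm1 and Tnp1, had a summed signal of 153293 in adult testis and of 1538 to 1795 on the other arrays. The 12 oocyte genes summed to 1451, 21788 and 11908 in fetal, neonatal and adult ovary, and to 2741, 966 and 1523 in fetal, neonatal and adult testis. In the fetal pair the list did not favour the ovary, because Dppa3, a germ cell gene of both sexes, had 253 in fetal ovary and 1819 in fetal testis, whereas Figla, an oocyte transcription factor, had 352 in fetal ovary and was at the floor in fetal testis.

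Axoneme genes as a group had their highest signals in adult testis. Of the 48 genes, 44 were above the floor in adult testis, 20 in fetal testis and 15 in neonatal testis, and 21 in neonatal ovary, 17 in fetal ovary and 13 in adult ovary. The summed signal of the 48 genes was 110718 in adult testis and between 7638 and 10791 on the other 5 arrays. There were 41 genes whose highest signal was in adult testis, and 16 that lay above the floor there and nowhere else. Another 10 were above the floor on all 6 arrays. Another 4 of the 48, Cfap47, Dnah11, Dnah17 and Rsph4a, each with 1 probe set, were at the floor on every array. Cfap47 is also the only X-linked member. The counts of genes highest in adult testis, above the floor there alone, on all arrays or on none were not taken over all genes. No background share stands beside them.

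**Figure D1:**
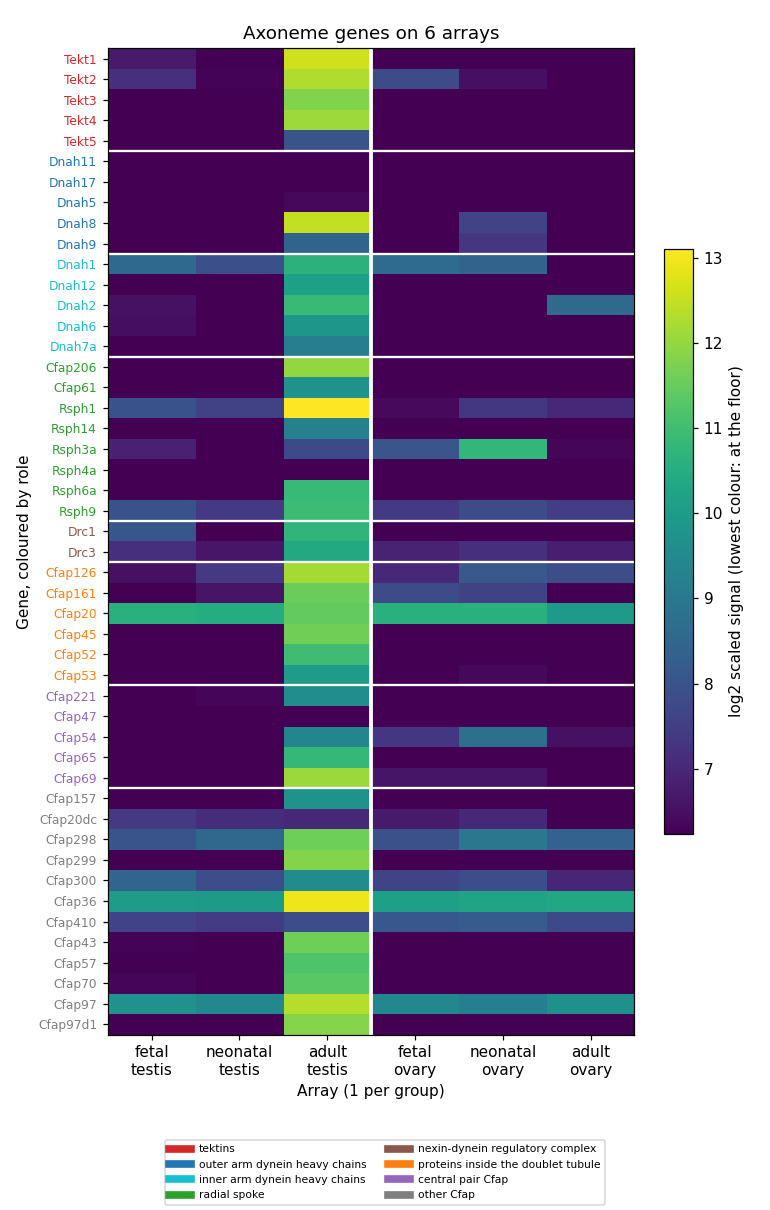
Log2 scaled signal of the 48 axoneme genes (rows, grouped and coloured by role) on the 6 arrays (columns, ages in order within testis and ovary). The darkest colour is the floor, the adult testis column is the brightest for 41 genes, and the brightest cell of Rsph3a is in neonatal ovary.

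Against neonatal ovary, 35 of the 48 axoneme genes were higher in adult testis and 1 was lower, where 10.5% of all genes were higher and 11.6% were lower. The median log2 ratio was 3.57, and 0 over all genes. Of the 35 ratios, 21 are lower bounds because the gene was at the floor in neonatal ovary. Scatter between the log2 ratios of 2 probe sets of the same gene gave an SD of 0.61 for this comparison, called the technical SD. Only probe sets above the floor on both arrays entered it, so it does not describe the ratios that are lower bounds. Error shared by a whole array cancels in it, and a real difference between what the 2 probe sets detect adds to it. It covers no variation between animals. Just inside the limit was Dnah1 at 4.68-fold, and just outside it were Tekt5 at 3.43-fold or more and Cfap300 at 3.25-fold.

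**Figure D2:**
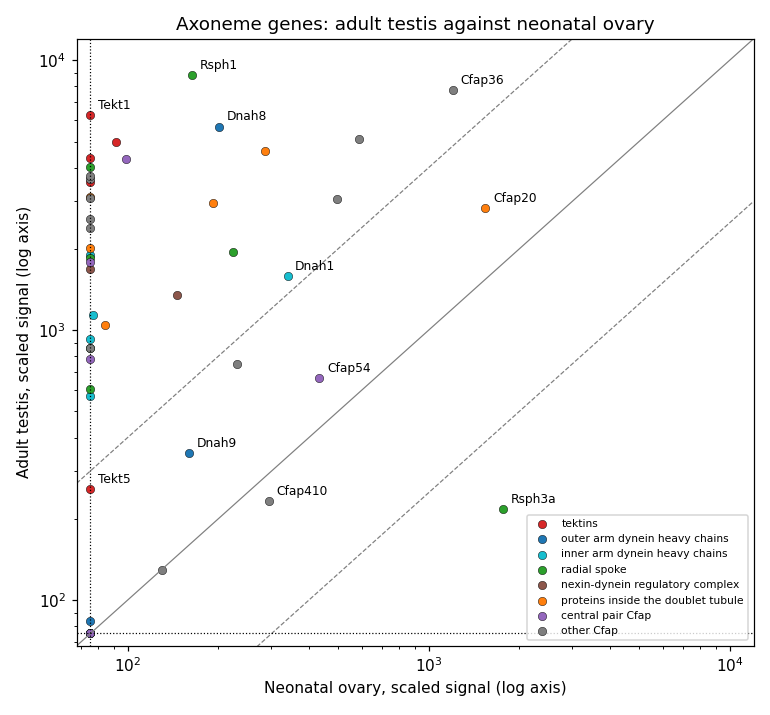
Scaled signal in adult testis (vertical) against neonatal ovary (horizontal), both log axes, 1 point per axoneme gene. Dotted lines are the floor of 75.3, the solid line is equality and dashed lines are a ratio of 4; 35 points lie above the upper dashed line and Rsph3a alone lies below the lower one.

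Of the tektins, 4 of 5 were higher in adult testis than in neonatal ovary, with a median log2 ratio of 5.77 in which 4 of the 5 ratios are lower bounds. Tekt1 had a signal of 6268 in adult testis and was at the floor in neonatal ovary, at least 83.3-fold higher, and it was also above the floor in fetal testis, at 107. Tekt4, which is needed for coordinated beating of mouse sperm, had 4354 in adult testis and did not exceed the floor elsewhere, at least 57.8-fold higher than in neonatal ovary. Tekt3 had 3550 in adult testis and was at the floor elsewhere. Tekt2, a tektin required for sperm motility and dynein arm integrity in mice, was the only tektin seen in ovary. Its signals were 142, 79.2 and 4993 in fetal, neonatal and adult testis, and 229, 91.6 and the floor in fetal, neonatal and adult ovary. Tekt2 was thus 54.5-fold higher in adult testis than in neonatal ovary, and within the ovary its highest signal was fetal. Tekt5 had 258 in adult testis and was at the floor elsewhere, so that it could not reach a ratio of 4.

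Among outer arm dynein heavy chains, 1 of 5 was higher in adult testis than in neonatal ovary. Dnah8, the outer arm chain of the sperm tail, had 5682 in adult testis and 201 in neonatal ovary, a ratio of 28.2, and did not exceed the floor elsewhere. Dnah9, a chain of the distal part of motile cilia, had 351 in adult testis and 161 in neonatal ovary, a ratio of 2.18, and was at the floor elsewhere. Dnah12 and Cfap53 were likewise above the floor in adult testis and neonatal ovary alone. Before the floor was set Dnah8 had 74.2 in fetal ovary, just under it, and the other probe set of Dnah9 was at the floor on all arrays. Dnah5 and Dnah11, outer arm chains of airway cilia, had at most 83.6, in adult testis for Dnah5. Dnah17, known as a sperm tail chain in humans and mice, was at the floor on all arrays with its single probe set.

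All 5 measured inner arm heavy chains were higher in adult testis than in neonatal ovary. Dnah2 had 1892 in adult testis and was at the floor in neonatal ovary, at least 25.1-fold higher, but it also had 388 in adult ovary. Dnah12 had 1136 in adult testis and 76.6 in neonatal ovary, Dnah6 had 929 against the floor and Dnah7a 573 against the floor, ratios of 14.8, at least 12.3 and at least 7.61. Dnah1, needed for inner arms of the sperm tail, was above the floor on 5 of the 6 arrays, more than any other of the 10 chains. Its testis signals were 380 (fetal), 241 (neonatal) and 1590 (adult), and its ovary signals were 395 (fetal), 340 (neonatal) and the floor (adult). A further probe set that matches both Dnah7b and Dnah7c, and so lies outside the rule, had 3643 in adult testis and 131 in neonatal ovary.

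Radial spoke genes were higher in adult testis for 6 of 8. Rsph1, a spoke head protein, had 8789 in adult testis and 163 in neonatal ovary, a ratio of 53.8, and was above the floor on all arrays. Cfap206 and Cfap61, known from Tetrahymena and Chlamydomonas as proteins of the spoke base, had 4025 and 862 in adult testis against the floor in neonatal ovary, at least 53.5-fold and 11.5-fold higher. Rsph6a and Rsph4a are paralogous spoke head genes, of sperm and of cilia. Rsph6a had 1857 in adult testis and nowhere else exceeded the floor, whereas Rsph4a was at the floor on all 6 with its single probe set. Before the floor was set Rsph4a had 65.7 in neonatal ovary and between 12.8 and 30.3 on the other arrays. Rsph9, shared by both kinds of spoke, had 1955 in adult testis and 225 in neonatal ovary, and Rsph14 had 605 in adult testis and was at the floor elsewhere.

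Both measured genes of the nexin-dynein regulatory complex were higher. Drc1, a scaffold of the complex, had 1692 in adult testis and was at the floor in neonatal ovary, at least 22.5-fold higher. Drc1 was also seen in fetal testis, at 268, and not above the floor in neonatal testis or any ovary. Drc3 had 1349 in adult testis and 146 in neonatal ovary, 9.26-fold higher.

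Genes for proteins inside the doublet tubule were higher for 5 of 6. Cfap45 had 3105 and Cfap52 had 2015 in adult testis, both against the floor in neonatal ovary, at least 41.2-fold and 26.8-fold higher. Cfap126 had 4627 in adult testis and 286 in neonatal ovary, Cfap161 had 2963 and 192, and Cfap53 had 1047 and 84.1, ratios of 16.2, 15.4 and 12.4. Cfap20, a junction protein of the doublet that is also found in cells without motile cilia, was the exception. It had 2826 in adult testis and 1544 in neonatal ovary, 1.83-fold, with 968 to 1550 on the other 4 arrays.

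Central pair genes were higher for 3 of 5. Cfap69 had 4307 in adult testis and 98.8 in neonatal ovary, 43.6-fold, Cfap65 had 1784 against the floor and Cfap221 781 against the floor. Cfap54, a central apparatus protein, differed by 1.53-fold, with 666 in adult testis and 434 in neonatal ovary. Of the other 12 Cfap genes, 9 were higher. Cfap97d1 and Cfap299 had 3720 and 3640 in adult testis and nowhere else exceeded the floor, at least 49.4-fold and 48.3-fold higher. Cfap43, known from Tetrahymena and Chlamydomonas as part of the tether of an inner arm motor, had 3076 in adult testis, at least 40.9-fold higher, and Cfap70 had 2579, at least 34.3-fold higher. Cfap57 with 2384 and Cfap157 with 857 followed the pattern of Cfap97d1, at least 31.7-fold and 11.4-fold higher. Cfap36, Cfap97 and Cfap298, the last a factor of dynein arm assembly, were above the floor on every array, and each was between 6.15-fold and 8.71-fold higher. Cfap410, with 234 in adult testis and 294 in neonatal ovary, did not differ by 4-fold in any comparison.

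The same adult testis array was set against neonatal testis and adult ovary, so these comparisons share an array with the first and repeat its adult testis values. Against neonatal testis 37 axoneme genes were higher and 0 lower, beside 10.7% higher and 10.3% lower among all genes. Of the 37 ratios, 26 are lower bounds. The median log2 ratio over the 48 genes was 3.68 and the technical SD 0.57. Against adult ovary 38 were higher and 0 lower, beside 10.9% higher and 11.9% lower among all genes, and here the median was 3.60 and the SD 0.63. Lower bounds were 28 of these 38 ratios. The balance of all genes in the 3 adult testis comparisons depended on the scaling. With hybridization control spots in place of the trimmed mean, 3095 genes were higher and 1067 lower than in neonatal ovary (1919 and 2105 with the trimmed mean), 4054 and 404 against neonatal testis (1939 and 1876), and 3474 and 753 against adult ovary (1980 and 2166). Dnah8, at the floor in both, was at least 75.5-fold higher than in neonatal testis and adult ovary, beside its 28.2-fold over neonatal ovary. Dnah1 was 6.61-fold higher than in neonatal testis and at least 21.1-fold higher than in adult ovary. Dnah9 was at least 4.66-fold higher than in either. Cfap300, a dynein assembly factor, was 5.94-fold higher than in adult ovary and 3.23-fold higher than in neonatal testis.

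**Figure D3:**
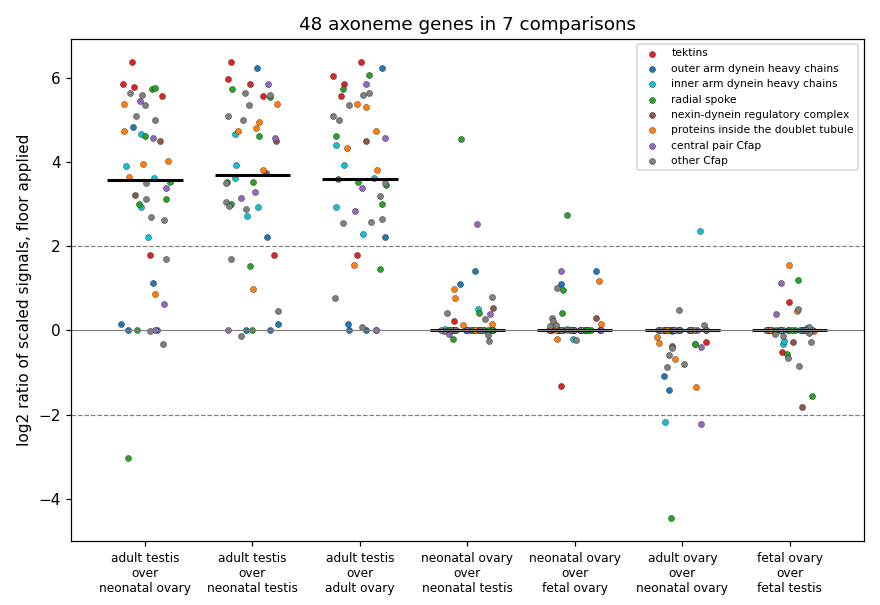
Log2 ratio of scaled signals for each of the 48 axoneme genes in 7 comparisons, coloured by role; black bars are medians over the 48 genes and dashed lines a ratio of 4. The 3 comparisons with adult testis have medians between 3.57 and 3.68, and the 4 among the other arrays have medians of 0. In those 4, between 25 and 27 of the 48 genes are at the floor on both arrays.

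Most listed axonemal genes without these names were also higher in adult testis. Of 10 dynein intermediate and light chain and docking genes, 8 were higher in adult testis than in neonatal ovary, with a median log2 ratio of 4.02. Dnali1, an inner arm light chain, had 3077 in adult testis and was at the floor elsewhere, and Dynlrb2, a light chain of the roadblock family, had 5489 in adult testis and 239 in neonatal ovary. Dynein arm assembly factors were higher for 8 of 9 (median 2.88), with Dnaaf1 at 8156 against the floor, at least 108-fold. Among central pair and nexin link genes 10 of 14 were higher (median 3.71), such as Hydin, a central pair protein, with 1010 in adult testis and the floor on the other 5 arrays. Lower bounds make up 6, 5 and all 10 of the higher ratios of the 3 lists, in the order given. None of these 3 lists had a gene 4-fold or more lower, and among those that did not pass the limit, Dnal1, an outer arm light chain, had 354 in adult testis and 439 in neonatal ovary.

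In neonatal ovary against neonatal testis, 2 of the 48 axoneme genes were higher, Rsph3a and Cfap54, and 0 were lower. Over all genes 1.40% were higher and 0.962% lower, and a count of 2 is too small to be read against that background. The median log2 ratio was 0, or 0.40 over the 22 genes above the floor on either array, and the technical SD was 0.28. Rsph3a, a spoke protein that also anchors protein kinase A in humans, had ovary signals of 267 (fetal), 1767 (neonatal) and 79.8 (adult), and testis signals of 117 (fetal), the floor (neonatal) and 218 (adult). Neonatal ovary exceeded neonatal testis by at least 23.5-fold, and Rsph3a was the gene 8.12-fold lower in adult testis than in neonatal ovary. The neonatal ovary value stood above the other 5 arrays by 6.63-fold or more.

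The Rsph3a value rests on 1 probe set. Its other probe set was at the floor on all arrays. A probe set shared by Rsph3a and its near copy Rsph3b, which the rule left out, had 2635 in neonatal ovary and 2063 in neonatal testis, a ratio of 1.28, and 10174 in adult testis. Signal of the spoke 3 gene pair was therefore highest in adult testis by the shared probe set, and highest in neonatal ovary by the probe set for Rsph3a alone.

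Cfap54 had ovary signals of 163 (fetal), 434 (neonatal) and 93.0 (adult), and in testis it was at the floor in fetal and neonatal samples and had 666 in the adult. The neonatal ovary signal was at least 5.76-fold that of neonatal testis. Its second probe set was at the floor on all 6 arrays. Below the limit, Dnah8 and Dnah9 exceeded neonatal testis by at least 2.68-fold and 2.13-fold, and Cfap161, Cfap410 and Cfap126 had ratios of 1.99, 1.72 and 1.71. The other 41 genes lay within a ratio of 1.5 in either direction, but 26 of them were at the floor on both arrays and have no measured ratio.

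Most duct, surface and oocyte genes differed by 4-fold between the neonatal arrays, and most markers of multiciliated cells did not. Of the markers of multiciliated cells, 1 of 18 was higher in neonatal ovary, with a summed signal of 3776 in neonatal ovary and 2821 in neonatal testis. Foxj1, the master factor of motile cilia, was at the floor on all arrays but adult testis (568). Deup1, which multiplies basal bodies, and Rfx2 were likewise seen in adult testis alone, and 9 of the 18 markers were at the floor in neonatal ovary. The marker that was higher was Ccno, a cyclin of basal body amplification, with 916 in neonatal ovary and the floor in neonatal testis. Ccno also had 346 in adult ovary and 102 in adult testis, and was at the floor in fetal ovary and fetal testis. Which cells gave the Ccno signal was not tested. Dynlrb2 and Lrrc23, a spoke protein, had 239 and 137 in neonatal ovary, with neonatal testis at the floor. Cdhr4 had 418 in neonatal ovary and 196 in neonatal testis. In the other direction, Mlf1 had 530 in neonatal ovary and 964 in neonatal testis, and Rfx3 had 89.2 and 97.4. Many of these markers are also genes of the spermatid, and 9 of 18 were higher in adult testis than in neonatal ovary.

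Of 13 duct and oviduct epithelium genes, such as keratins, 12 were higher in neonatal ovary, with a median log2 ratio of 2.72 and summed signals of 22812 in neonatal ovary and 2834 in neonatal testis. The same genes summed to 10591 in fetal ovary and 8647 in fetal testis. Ovgp1, the oviduct glycoprotein, had 1961 in neonatal ovary and 75.6 in neonatal testis. Wnt7a was the gene of the duct and oviduct list that was not higher, with 126 in neonatal ovary and 171 in neonatal testis. Genes of surface epithelium and mesothelium were higher for 7 of 9 (summed signals 16733 in neonatal ovary and 4499 in neonatal testis). Lhx9 of that list was lower, with 633 in neonatal ovary and 2606 in neonatal testis. Oocyte genes were higher for 10 of 12, such as Figla with 2405 against the floor. Most genes of the 3 lists thus moved with Rsph3a and Cfap54 between the neonatal arrays, and their part in the axoneme values was not tested. Krt7 and Krt19 are in both the duct and the surface list. Spermatid genes were higher for 0 of 20. Outside the axoneme names, Iqca, a gene of the nexin link list, had 1014 in neonatal ovary, 984 in adult testis, 116 in adult ovary and the floor on the other 3 arrays.

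**Figure D4:**
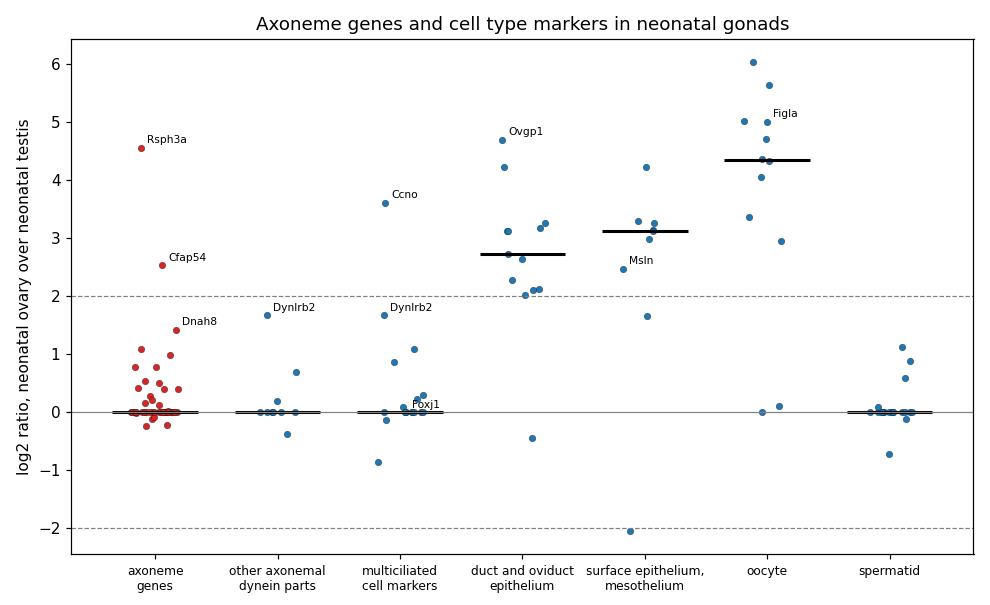
Log2 ratio of neonatal ovary over neonatal testis for the 48 axoneme genes (red) and for genes of 6 comparison lists (blue), 1 point per gene; black bars are medians and dashed lines a ratio of 4. The axoneme, other dynein, multiciliated and spermatid medians are at 0, and the duct, surface and oocyte medians lie between 2.72 and 4.35. In the lists with a median of 0, 26 of 48, 6 of 10, 9 of 18 and 14 of 20 genes are at the floor on both arrays. Without those genes the medians are 0.40, 0.44, 0.30 and 0.34.

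Within the ovary few axoneme genes passed the limit. In neonatal against fetal ovary Rsph3a alone was higher, 6.63-fold, and 0 genes were lower, where 0.759% of all genes were higher and 0.231% lower (technical SD 0.28). Dnah8, Cfap54 and Cfap126 followed below the limit at 2.68-fold or more, 2.66-fold and 2.25-fold, and Tekt2 fell short of it in the other direction with 91.6 in neonatal and 229 in fetal ovary. Over this interval oocyte genes were higher for 10 of 12, duct and oviduct genes for 3 of 13, surface genes for 1 of 9 and multiciliated markers for 2 of 18 (Ccno and Tppp3), and their part in the Rsph3a value was not tested. In adult against neonatal ovary 1 gene was higher and 3 were lower, where 1.48% of all genes were higher and 1.89% lower (technical SD 0.32). Dnah2 was the higher one, with 388 in adult ovary and the floor in neonatal ovary, at least 5.15-fold, and its other probe set was at the floor on all arrays. The lower ones were Rsph3a, 22.1-fold, Cfap54, 4.66-fold, and Dnah1, at least 4.52-fold. Between these arrays duct and oviduct genes were lower for 11 of 13, surface genes for 5 of 9, oocyte genes for 4 of 12 (with 1 higher) and multiciliated markers for 1 of 18, and their part in these values was not tested.

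In fetal ovary against fetal testis no axoneme gene differed by 4-fold, where 0.192% of all genes were higher and 0.440% lower. The widest differences were Drc1, with the floor in fetal ovary and 268 in fetal testis, Rsph1, with 84.2 and 248, and Cfap161, with 222 in fetal ovary and the floor in fetal testis. The technical SD was 0.16 here. Several genes that were at the floor in neonatal testis were just above it in fetal testis, among them Tekt1 (107), Dnah2 (94.0), Dnah6 (90.4), Cfap70 (82.6) and Cfap43 (79.6), and fetal ovary was at the floor for all 5. Before the floor was set, neonatal testis had 34.1, 74.4, 10.9, 47.0 and 54.7 for these genes, in that order. Dnah2 was thus just under the floor there.

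Probe sets of a gene did not always carry the same signal. Of the 48 genes, 18 had 2 or more probe sets, and the 1 with the highest mean signal was used. Of the 25 others, 9 were at the floor on all arrays and 6 were 4-fold or more higher in adult than in neonatal testis. Of the 19 that were not, 14 belonged to a gene whose probe set in use was. Cfap69 was seen by all of its 3 probe sets, each higher in adult than in neonatal testis, by at least 57.2-fold, 20.1-fold and 9.54-fold. Dnah8 was at least 75.5-fold higher by the probe set used and at least 1.18-fold by the other, which had 88.6 in adult testis.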

How the data were processed

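RNA of 6 mouse gonad samples was hybridized to 6 arrays. The deposited table holds 1 intensity value per probe set and array on a linear scale for 45101 probe sets. The submitters' processing notes name GCOS version 1, with no role, and the sources used here do not give the background correction, probe summary or scaling. Each array was multiplied to a common 2% trimmed mean (factors 0.913 to 1.26), values below the median of all scaled signals (75.3) were raised to it, and the brightest probe set of a gene, by its mean over the arrays, stood for the gene. This mean includes the arrays that are compared, so an array with a high signal weighs in the choice of probe set. Probe sets with several symbols were left out. Comparisons use no test, because each group has 1 array, and 7 pairs of arrays were compared. The technical SD is the robust SD of the log2 ratio difference between 2 probe sets of a gene, divided by the square root of 2. Only probe sets above the floor on both arrays entered it. Error common to a whole array is not in it. All 48 members were accounted for, and the text names any above the floor, with list genes. Members and lists were chosen with earlier results of these data known, and the X-box search was added after values were seen. The calling steps were tested on simulated arrays, copies of the fetal testis array with added noise that was not matched to these data. Changes were set only in genes well above the floor, so that test does not cover ratios with an array at the floor. In 10 alternatives the scaling was replaced by quantile normalization, by none, or by 9 hybridization controls and their geometric mean, both chosen after the control signals were seen. The other alternatives were floors at the 25th and 75th percentile, 16 added without a floor, the mean of all probe sets, leaving out probe sets marked as open to cross-hybridization, and ratios of 2 and 8. Python 3.11.15, numpy 2.4.6 and pandas 2.3.3 were used. The number of arrays limits the precision.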

Additional observations from a re-analysis of the deposited data

Results flagged for a closer look

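Cfap54 differed in direction between ages and between organs. Its log2 ratio of ovary over testis was 2.53 in neonatal gonads and -2.84 in adult gonads. Between adult and neonatal gonads its log2 ratio was 3.14 in testis and -2.22 in ovary. Dnah1 also differed between the organs, with a log2 ratio of adult over neonatal of 2.72 in testis and -2.18 in ovary. These differences rest on 4 arrays with 1 per group and were not tested. The neonatal testis value of Cfap54 and the adult ovary value of Dnah1 were at the floor, so the ratios of 2.53 and 3.14 for Cfap54 and of -2.18 for Dnah1 are bounds. The second probe set of Cfap54 did not exceed the floor on any array, and that of Dnah1 did so in adult testis alone.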

How the results depend on the processing

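No paired analysis was possible because each group has 1 array. The counts of axoneme genes higher in adult testis stayed between 26 and 41 of 48 under the alternatives that keep a ratio of 4, the lowest with the floor at the 75th percentile, and were 31 to 34 of the 45 genes left without probe sets that can cross-hybridize. Among all genes the share higher ran from 6.38% (75th percentile floor, over neonatal ovary) to 22.3% (hybridization controls, over neonatal testis). Over neonatal ovary, neonatal testis and adult ovary, in this order, median log2 ratios became 4.51, 4.84 and 4.66 with hybridization controls and 2.34, 2.34 and 2.30 with the floor at the 75th percentile. Over neonatal testis and adult ovary they were 4.77 and 4.71 with the floor at the 25th percentile and 4.37 and 4.33 with 16 added. Hybridization controls moved the median of all genes above the floor on both arrays to 0.32 from -0.47 for adult testis over neonatal ovary, and changed the split of all genes as given above. In neonatal ovary over neonatal testis 4 axoneme genes were higher after lowering the floor to the 25th percentile, adding 16 or using a ratio of 2, and 1 after raising it to the 75th percentile, averaging probe sets or using a ratio of 8. In the same order, 2.57%, 2.13%, 5.80%, 0.396%, 1.07% and 0.363% of all genes were higher. In neonatal over fetal ovary 2 genes were higher with the floor at the 25th percentile, 6 at a ratio of 2 (with 1 lower) and 0 at a ratio of 8. Shares of all genes were 1.59%, 3.60% (with 2.47% lower) and 0.198%. In adult over neonatal ovary the higher count was 0 with the floor at the 75th percentile, the mean of probe sets or a ratio of 8, beside 0.550%, 1.31% and 0.407% of all genes. The lower count was 1 with signals as deposited, the floor at the 75th percentile, the mean of probe sets or a ratio of 8, 5 with the floor at the 25th percentile and 6 at a ratio of 2. All-gene shares lower were 1.07%, 0.511%, 1.46%, 0.489%, 3.42% and 6.87%, in that order. In fetal ovary over fetal testis the counts were 2 higher and 2 lower with the floor at the 25th percentile, 1 and 2 with 16 added, and 3 and 2 at a ratio of 2. For all genes these were 0.357% and 0.792%, 0.275% and 0.638%, and 1.16% and 1.79%. Rsph3a kept a log2 ratio of 2.37 to 4.65 in neonatal ovary over neonatal testis, and Cfap54 had 0.34 with the floor at the 75th percentile and 1.54 with the mean of probe sets. The causes were not tested. Ratios of genes at the floor are bounds, so signal over background limits them.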

Other observations

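Genes of intraflagellar transport, which carries material along both motile and immotile cilia, were above the floor on all 6 arrays for 14 of 14. In adult testis over neonatal ovary 4 were higher and 0 lower, with a median log2 ratio of 1.18. Ift172, Ift140 and Ift122 were 7.19-fold, 5.74-fold and 4.42-fold higher, and Ift20 had 1720 in adult testis and 1656 in neonatal ovary. Ift27 had its highest signal in neonatal ovary, 2727, against 731 to 1055 on the other 5 arrays.

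Of 9 transcription factor genes of spermatids and cilia, 6 were higher in adult testis than in neonatal ovary. In adult testis Crem had 4058, Sox5 2111, Rfx2 1819 and Rfx4 1277, and none of them exceeded the floor in neonatal ovary, which makes Crem at least 53.9-fold higher and Rfx2 at least 24.2-fold. Tcfl5 had 5757 in adult testis and 268 in neonatal ovary. Rfx3 was at the floor in adult testis and had 89.2 in neonatal ovary, with 203 in fetal ovary.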
